A study of Mus musculus with 2 samples.

Results

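The gene set described here holds 6 genes, Trem2, Tyrobp, Gpnmb, Cd9, Itgax and Lgals3, named by symbol for their use as surface and receptor genes of lipid-associated macrophages, out of 29417 genes in the count table. All 6 had a row in the table. The cells were the stromal vascular fraction, the non-adipocyte cells released by Liberase digestion, of epididymal white fat from wild-type male C57BL/6J mice. Feeding was standard diet (16 weeks) in some mice and high-fat diet (8 weeks or 16 weeks) in others. Cells were stained with hashtag antibodies, pooled and sequenced together by TAS-Seq, a whole-transcriptome method run on the BD Rhapsody microwell system, with a second library for the hashtags. The labels tie no hashtag to a diet, a mouse or a replicate. The 9 hashtag populations, A0301, A0302, A0303, A0304, A0305, A0307, A0308, A0309 and A0310, are therefore given 1 by 1 as unassigned samples, and no diet comparison and no test was made.

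Trem2 is a receptor of macrophages, microglia and osteoclasts that binds phospholipids and lipoproteins such as apolipoprotein E. It has no signalling tail of its own and acts through Tyrobp, also called DAP12, an adaptor whose phosphorylated motif recruits the kinase Syk. In obese fat of mice and humans, Trem2-positive macrophages gather in crown-like structures around dying adipocytes and take up their lipid. Gpnmb is a transmembrane glycoprotein induced with lysosomal stress, Cd9 a tetraspanin that organises membrane proteins and marks extracellular vesicles, and Itgax the integrin alpha chain CD11c. Lgals3 encodes galectin-3, a galactoside-binding lectin found in the cytosol, at the surface and on damaged lysosomes.

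In the GENCODE M21 annotation of GRCm38, Trem2 (ENSMUSG00000023992.14) lies at chr17:48346401-48354147 and Tyrobp (ENSMUSG00000030579.10) at chr7:30413760-30417585, both on the plus strand. Gpnmb (ENSMUSG00000029816.10) lies at chr6:49036546-49070929 on the plus strand, and Cd9 (ENSMUSG00000030342.8) at chr6:125460266-125494791 on the minus strand. Itgax (ENSMUSG00000030789.9) lies at chr7:128129547-128150657 and Lgals3 (ENSMUSG00000050335.17) at chr14:47367751-47386160, both on the plus strand. RefSeq promoter windows, the 250 bases before a gene's start on GRCm38.p6, were matched for 5 of the 6 genes, the Tyrobp window not being used here. The windows of Trem2 (chr17:48346151-48346400) and Gpnmb (chr6:49036268-49036517) are shown because these genes had the closest pattern of levels within the set, and that of Itgax (chr7:128129300-128129549) because it holds a searched motif, marked in capitals. All 3 are on the plus strand and read 5′ to 3′.
Trem2: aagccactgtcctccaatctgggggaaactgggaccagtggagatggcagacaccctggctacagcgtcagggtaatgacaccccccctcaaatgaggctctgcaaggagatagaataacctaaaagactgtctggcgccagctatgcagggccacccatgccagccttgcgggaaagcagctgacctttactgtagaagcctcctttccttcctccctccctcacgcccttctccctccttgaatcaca
Gpnmb: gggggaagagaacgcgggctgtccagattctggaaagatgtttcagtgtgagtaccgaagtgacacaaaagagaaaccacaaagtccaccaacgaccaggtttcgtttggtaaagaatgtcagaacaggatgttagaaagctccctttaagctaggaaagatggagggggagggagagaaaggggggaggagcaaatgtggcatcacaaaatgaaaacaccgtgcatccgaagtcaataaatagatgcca
Itgax: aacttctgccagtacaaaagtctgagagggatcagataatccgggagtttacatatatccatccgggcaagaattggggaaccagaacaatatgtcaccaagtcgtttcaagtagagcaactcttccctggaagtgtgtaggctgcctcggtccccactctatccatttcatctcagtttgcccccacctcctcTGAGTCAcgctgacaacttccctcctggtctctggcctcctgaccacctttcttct
The capitals in the Itgax window mark the AP-1 letters TGAGTCA, which end 50 bases before the start. The search covered, on both strands, TGAGTCA (in 4.46% of the 32851 windows of the table), the PU.1 letters GAGGAAGT (2.44%) and 2 E-boxes that MiT factors such as Mitf bind, CACGTG (6.02%) and CATGTG (12.25%). The matches found overlap no other. The Cd9 window (chr6:125494761-125495010, minus strand) held CATGTG on its reverse strand, and the windows of Trem2, Gpnmb and Lgals3 (chr14:47373610-47373859) held none of these letters. The Lgals3 window lies inside the GENCODE gene, since the RefSeq start used there is downstream of the GENCODE one. A match is a description of letters and not of a bound site.

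The table gave 12028 cells with a hashtag or doublet call, and 10286 remained after filters on genes, mitochondrial counts and doublets. They held a median of 36709 counts per cell (5169 to 736281), and the hashtag populations held 810 to 1428 cells each. Clusters were made without the 6 genes and the pathway genes below, and were named "-like" from marker genes, with naming thresholds set after the clusters were seen. This left 377 cells (3.67%) unnamed. Macrophage-like cells numbered 3602 (35.0%), with a summed level of the 10 macrophage markers of 8322 CPM, against 3384 CPM in monocyte-like, 160.0 CPM in fibroblast-like and 138 CPM in B-like cells. Levels are given in CPM, a gene's count summed over the cells of a class and scaled to all counts of those cells. The 95% intervals are exact Poisson intervals for CPM and exact binomial (Clopper-Pearson) intervals for shares. They cover counting error only, since sequenced copies of a molecule are not independent, and there is no replicate behind them. CPM is not scaled to gene length, so levels are compared across cells within a gene and not between genes.

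Trem2 was far higher in macrophage-like cells than in any other named class of at least 50 cells. Its level was 1334 CPM (1329.8 to 1338) in the 3602 macrophage-like cells, against 238 CPM (221 to 256) in the 95 monocyte-like cells, the class next in order. It was 65.2 CPM in type 2 and 40.4 CPM in type 1 conventional dendritic-like cells, and 32.3 CPM in fibroblast-like cells. The macrophage-like level was thus 5.60-fold that of monocyte-like cells and 20.5-fold that of type 2 dendritic-like cells. Over the 9 hashtag populations the macrophage-like level ranged over 499.8 to 1678 CPM with a median of 1131 CPM. The monocyte-like level in the 6 populations with at least 10 such cells ranged over 49.8 to 479 CPM, so the ranges of these neighbouring classes did not overlap. Mesothelial-like cells, the lining of the fat pad, had 121 CPM of Trem2 (43.4 to 173 CPM over 9 populations). The 27 mesothelial-like cells with at least 22 Trem2 counts had a macrophage marker sum of 649.5 CPM, against 253 CPM in the other 269, and the part of macrophage RNA in their Trem2 was not tested. The 96 adipocyte-like cells, a cell type the preparation should lack, had 195 CPM of Trem2 and 798 CPM of Tyrobp, beside 4052 CPM of macrophage markers with all 10 markers at 20 CPM or more. The 12 neutrophil-like cells had 894 CPM of Trem2, but the median over these cells was 0 CPM.

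Tyrobp, the adaptor, was spread over the myeloid classes and natural killer cells, where it also serves receptors other than Trem2. It reached 2433 CPM in macrophage-like, 2160 CPM in monocyte-like, 1647 CPM in natural killer-like and 1588 CPM in type 2 dendritic-like cells. In type 1 dendritic-like cells it was 569 CPM, and in fibroblast-like cells 22.9 CPM. The macrophage-like level was 1.13-fold that of monocyte-like cells, and the hashtag ranges of the 2 classes, 1643 to 2541 CPM and 1528 to 2544 CPM, overlapped almost throughout. The 12 neutrophil-like cells, too few to be ranked, had 3556 CPM.

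Gpnmb was highest in macrophages, with low levels in monocytes and fibroblasts. It stood at 2839.6 CPM (2834 to 2846) in macrophage-like cells, against 225 CPM in monocyte-like and 162 CPM in fibroblast-like cells, while type 1 and type 2 dendritic-like cells had 54.5 and 48.2 CPM. The macrophage-like level was 12.6-fold that of monocyte-like and 17.5-fold that of fibroblast-like cells. Its hashtag range in macrophage-like cells, 539 to 4012 CPM, overlapped the monocyte-like range of 48.5 to 921 CPM, whose median was 67.7 CPM.

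Cd9 was the member whose highest level lay outside the macrophages. Lymphatic endothelial-like cells had the highest level, 1282 CPM (1225 to 1340.4) in 60 cells, followed by epithelial-like cells with 879 CPM (859 to 900.3) in 70 cells. Macrophage-like cells came next with 716 CPM, ahead of fibroblast-like cells with 380 CPM. The lymphatic endothelial-like level was 1.79-fold the macrophage-like level. Among immune classes of at least 50 cells Cd9 was nonetheless highest in macrophage-like cells. Their level was 3.97-fold that of monocyte-like cells (180.3 CPM) and 3.21-fold that of type 2 dendritic-like cells (223 CPM). The 12 neutrophil-like cells, too few to be ranked, had 1035 CPM. T-like and B-like cells had 38.3 and 34.8 CPM.

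Itgax, often used as a marker of dendritic cells and of inflammatory adipose macrophages, did not separate macrophages from natural killer cells by summed level. It was 377 CPM (375 to 379) in macrophage-like cells and 375 CPM (343 to 409) in the 83 natural killer-like cells, whose intervals overlapped. The natural killer-like level rests on few cells, with at least 22 Itgax counts in 7 of the 83 and 35.4% of the counts in the top 5% of cells. Hashtag populations with at least 10 such cells had 231 to 337 CPM. Type 2 dendritic-like cells had 214 CPM, type 1 dendritic-like cells 156 CPM and monocyte-like cells 108 CPM. Outside the immune cells it was highest in adipocyte-like cells, at 32.8 CPM beside the macrophage markers given above, and in mural-like cells, at 20.3 CPM (0 to 84.1 CPM over populations), against 10.1 CPM in lymphatic endothelial-like and 3.21 CPM in fibroblast-like cells.

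Lgals3 had its highest level in macrophage-like cells, 9200.2 CPM (9189.5 to 9211), against 2613 CPM in monocyte-like, 1484 CPM in type 2 dendritic-like and 1304 CPM in type 1 dendritic-like cells. Outside the immune cells it had 1081 CPM in epithelial-like and 774 CPM in mesothelial-like cells, against 119 CPM in fibroblast-like cells. B-like cells had 21.3 CPM. The macrophage-like level of Lgals3 was 3.52-fold that of monocyte-like cells, and their hashtag ranges, 2914 to 11041 CPM and 1598 to 3955 CPM, overlapped at the edge.

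**Figure D1:**
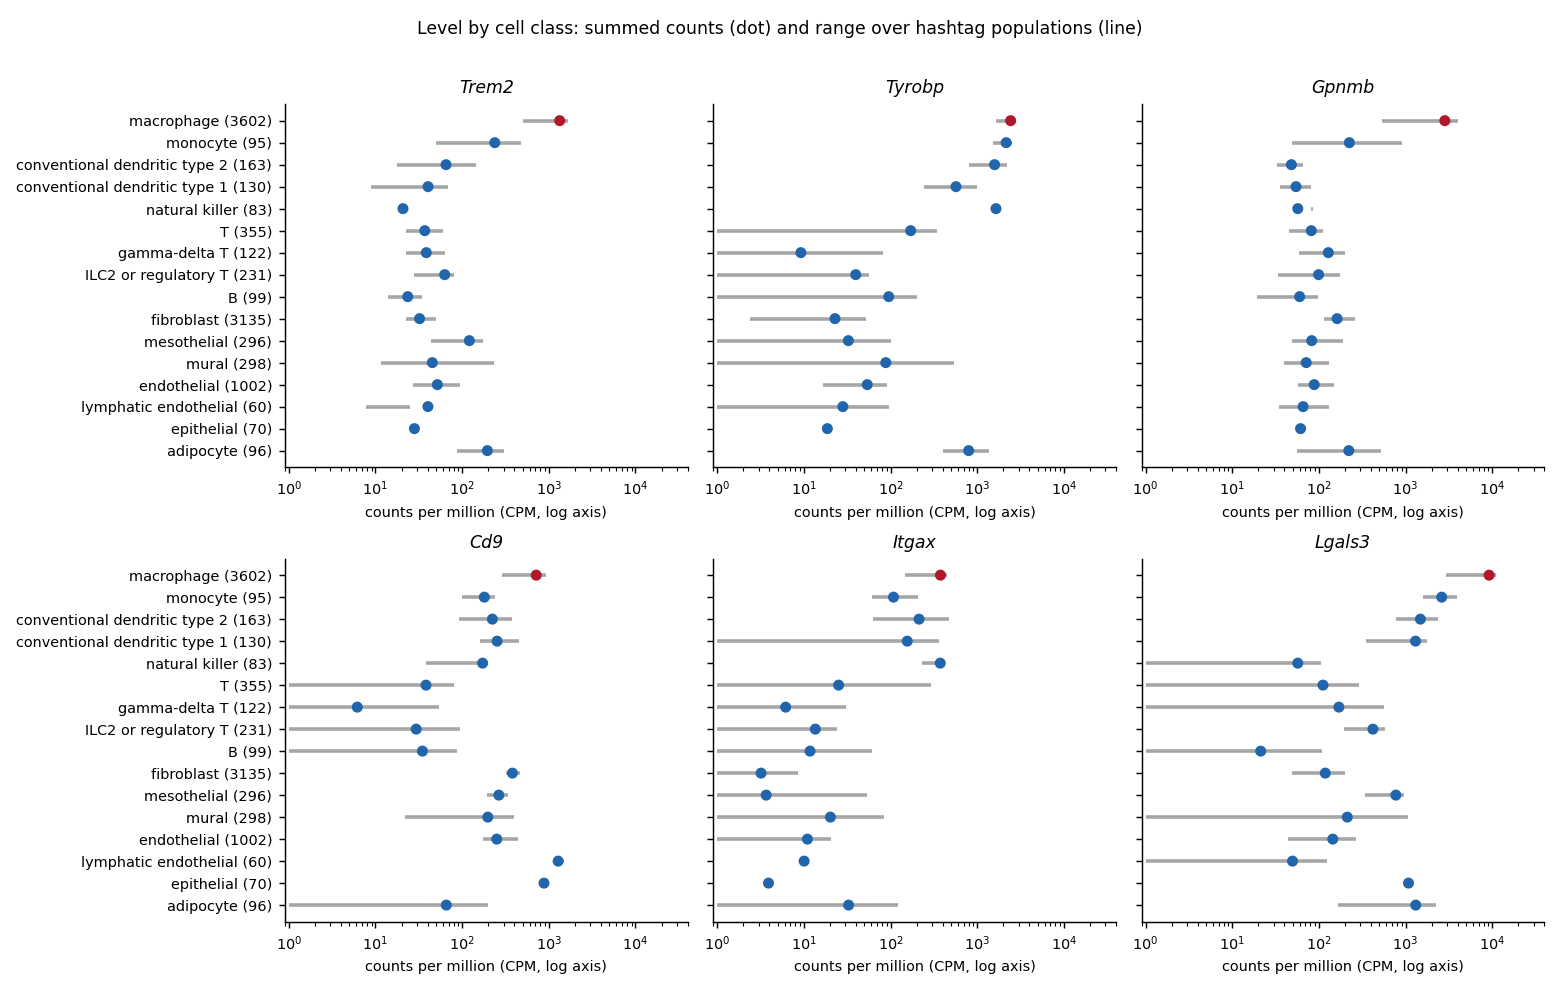
CPM (log axis) of each gene in the cell classes of at least 50 cells (rows, with cell numbers). Points are summed counts, lines the range over hashtag populations with at least 10 cells of the class, and values under 1 CPM are drawn at 1. Macrophage-like cells (red) stand highest for all genes but Cd9, level with natural killer-like cells for Itgax (377 and 375 CPM), and Cd9 is highest in lymphatic endothelial-like cells at 1282 CPM.

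Counted over the set, 5 of the 6 genes had their highest level in macrophage-like cells, Cd9 being the exception, where 4.34% of the 12548 genes with at least 20 CPM in some class did so. For Itgax the rank rests on a difference smaller than its counting interval, and it passed to natural killer-like cells in 9 of 23 other ways of processing. Some of these 23 could not change class levels. Against all other named cells together the macrophage-like level was 31.5-fold for Lgals3, 29.2-fold for Trem2, 22.4-fold for Itgax, 20.9-fold for Gpnmb, 20.3-fold for Tyrobp and 2.07-fold for Cd9. All 6 were at least 2-fold higher, where 13.1% of the 8043 genes compared were higher and 22.7% lower. The genes were chosen as macrophage genes, with earlier results of these data known, so these counts follow in part from that choice.

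Trem2 and Gpnmb counts were also present, at low levels, in lymphocyte-like cells, with 20.8 and 57.1 CPM in natural killer-like cells, whose Tyrobp and Itgax were high as given above. The lowest count above 0 in the table was 1 for Trem2 and Gpnmb, 7 for Itgax, 8 for Cd9, 11 for Tyrobp and 22 for Lgals3, so a listed 0 can stand for a count below these values, and 22 counts were used as a common floor. At least 22 counts were found for Trem2 in 66.9% (65.4 to 68.5) of macrophage-like cells and in 0 of 99 B-like cells, which allows a share of up to 3.03%, a limit taken, as for the other shares of 0, as 3 cells of the total. The other shares of macrophage-like cells were 90.6% for Lgals3, 87.3% for Tyrobp, 51.5% for Cd9, 49.3% for Gpnmb and 30.6% for Itgax. Median depth differed, with 66056 counts in macrophage-like and 13235 in B-like cells. After thinning each cell to 5000 counts, any Trem2 count was left in 78.1% of macrophage-like and 12.1% of B-like cells, and any Gpnmb count in 64.8% and 24.2%. In T-like cells these shares were 14.9% for Trem2 and 24.8% for Gpnmb. For each Trem2 count there were 2.13 Gpnmb counts in macrophage-like cells, 5.03 in fibroblast-like, 0.944 in monocyte-like and 0.683 in mesothelial-like cells. The lymphocyte classes had 1.58 in ILC2 or regulatory T-like, 2.21 in T-like, 2.55 in B-like, 2.75 in natural killer-like and 3.33 in gamma-delta T-like cells. T-like cells had 3.01 Lgals3 and 4.61 Tyrobp counts for each Trem2 count, against 6.90 and 1.82 in macrophage-like cells. Whether these counts came from free RNA was not tested.

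Within the macrophage-like cells the genes were far from even. The 11 subclusters without markers of another class were called by their leading genes. Trem2 was highest, at 2073 CPM (2055 to 2091), in the 170 cells of the Mfge8 Acp5 Ctsk subcluster, whose names stand for a bridge protein of dead-cell uptake, an acid phosphatase and cathepsin K. It was lowest in the 396 Ccr2 Retnla cells, at 91.0 CPM (86.7 to 95.4), and in the 191 Lyve1 Cd209f cells it was 266 CPM. The ratio of the highest to the lowest subcluster was 22.8. The other 8 subclusters lay between 907 CPM in the interferon and 1869.7 CPM in the Cpe Hmga2 Sox4 subcluster. Ranges over hashtag populations reached the next subcluster at each step from the Mfge8 Acp5 Ctsk down to the Selenop Ms4a6b subcluster, but ranges further apart in the order did not all overlap. Those of the Mfge8 Acp5 Ctsk (1905 to 2474 CPM) and Cpe Hmga2 Sox4 cells (1751 to 1933 CPM) lay above those of the Gclm Serpinb9b (1479 to 1581 CPM), cycling (866 to 1486 CPM) and Selenop Ms4a6b cells (850.0 to 1237 CPM). The Cpe Hmga2 Sox4 and Gclm Serpinb9b ranges rest on 3 populations each, the Mfge8 Acp5 Ctsk, cycling and Selenop Ms4a6b ranges on 6. The interferon range rests on 1 population. The Lyve1 Cd209f (131 to 275 CPM) and Ccr2 Retnla ranges (23.6 to 113 CPM) lay apart from these and from each other.

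Gpnmb was spread most widely, with 6962 CPM in the Mfge8 Acp5 Ctsk and 63.2 CPM in the Ccr2 Retnla subcluster, a ratio of 110.2. The steps between were graded, from 4734 CPM in the Gclm Serpinb9b and 3456 CPM in the Cpe Hmga2 Sox4 subcluster to 810.1 CPM in the Selenop Ms4a6b, 550.1 CPM in the interferon and 156 CPM in the Lyve1 Cd209f subcluster. Trem2 was thus already high in the Selenop Ms4a6b cells, where the Mfge8 Acp5 Ctsk level exceeded it 1.91-fold, while Gpnmb differed 8.59-fold between the same subclusters.

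Tyrobp varied least, with 3592 CPM in the Mfge8 Acp5 Ctsk, 1911 CPM in the Ccr2 Retnla and 1262 CPM in the Lyve1 Cd209f subcluster, a ratio of 2.85 between the ends. Between the Mfge8 Acp5 Ctsk and Ccr2 Retnla subclusters the adaptor differed 1.88-fold, where its receptor Trem2 differed 22.8-fold. Many Ccr2 Retnla cells left the macrophage-like class under some other ways of processing, as given below.

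Cd9 was highest in the Gclm Serpinb9b subcluster, named for a gene of glutathione synthesis and a serpin, at 1201 CPM, followed by 1037 CPM in the Cpe Hmga2 Sox4 and 1022 CPM in the Mfge8 Acp5 Ctsk subcluster. It was 90.8 CPM in the Ccr2 Retnla and 44.8 CPM in the Lyve1 Cd209f subcluster, a ratio of 26.8 between highest and lowest. The 3 highest overlapped in their hashtag ranges. The lowest population of the Mfge8 Acp5 Ctsk cells, 879.7 CPM, lay above the highest of the cycling cells, 779.9 CPM, but below the highest of the Hbb-bs Hba-a1 (909.6 CPM) and F7 Il1rn cells (901.4 CPM). The ratio of 26.8 rests on low counts at its lower end, and was 5.56 with each listed 0 replaced by the value just under the gene's lowest count, on CPM plus 1.

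Itgax was 769 CPM in the Mfge8 Acp5 Ctsk subcluster and 20.6 CPM in the Lyve1 Cd209f subcluster, a ratio of 37.4. That ratio rests on the low counts of the Lyve1 Cd209f cells and was 4.93 with each listed 0 replaced as for Cd9. The Ccr2 Retnla cells, lowest for Trem2 and Gpnmb, were not lowest here, with 169 CPM, above the Selenop Ms4a6b cells with 129 CPM, although their hashtag ranges of 79.8 to 263 CPM and 87.3 to 155 CPM overlapped.

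Lgals3 was 15435 CPM in the Mfge8 Acp5 Ctsk, 12335 CPM in the F7 Il1rn, 2570 CPM in the Ccr2 Retnla and 1499.7 CPM in the Lyve1 Cd209f subcluster, a ratio of 10.3 between the ends. Its lowest subcluster was above the 774 CPM of mesothelial-like cells, though hashtag ranges of 732 to 2313 CPM and 339 to 967 CPM overlapped. It lay near the 1484 CPM of type 2 dendritic-like cells and below the 2613 CPM of monocyte-like cells.

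Over the Lyve1 Cd209f subcluster, all 6 genes were at least 2-fold higher in the Mfge8 Acp5 Ctsk subcluster, where 11.4% of all genes were higher and 15.4% lower. Over the Ccr2 Retnla subcluster it was 5 of 6, all but Tyrobp, where 11.3% of all genes were higher and 11.9% lower. Over the Selenop Ms4a6b subcluster it was 4 of 6, with 3.81% of all genes higher and 8.38% lower, Gpnmb at 8.59-fold, Itgax at 5.98-fold, Lgals3 at 3.81-fold and Cd9 at 3.07-fold. The Mfge8 Acp5 Ctsk subcluster was highest for every member but Cd9, and each member was lowest in the Lyve1 Cd209f or the Ccr2 Retnla subcluster. The counts over these lowest subclusters thus follow largely from which subclusters were compared, a choice that the shares of all genes do not share. Between the highest and lowest subcluster all 6 genes had at least 2-fold, but so did 70.7% of the 8059 genes compared, whose median ratio was 2.48. The ratio depended on how cells and low counts were treated, with 5.62 to 29.0 for Trem2, 29.7 to 143 for Gpnmb, 5.56 to 42.4 for Cd9, 4.93 to 43.2 for Itgax, 6.75 to 15.7 for Lgals3 and 2.27 to 3.34 for Tyrobp over the ways of processing tried. The Ccr2 Retnla cells lie at the edge of the class. Their macrophage marker sum was 3558 CPM with 8 of 10 markers at 20 CPM or more, below the 4673 to 14056 CPM of the other 10 subclusters. Their monocyte marker sum was 155 CPM against 2055 CPM in monocyte-like cells. Their type 2 dendritic marker sum was 590 CPM, with 4 of 6 markers at 20 CPM or more, against 3051 CPM in type 2 dendritic-like cells. Among the other 10 subclusters only the Lyve1 Cd209f cells had a higher dendritic sum, 1807 CPM. At the coarser clustering 104 of the 396 Ccr2 Retnla cells were still macrophage-like, and 18 when doublets were kept. With at most 10% mitochondrial counts it was 17 of the 333 left. In these settings the Trem2 ratio of highest to lowest subcluster, on CPM plus 1, was 5.62, 7.17 and 8.25, against 22.5 in the main setting. At the finer clustering 391 stayed macrophage-like and the ratio was 29.0. With the 6 genes and pathway genes kept in clustering it was 392 cells and 12.2. Depth also moved with the levels. The Mfge8 Acp5 Ctsk and Gclm Serpinb9b cells had medians of 133021 and 119759 counts, the Lyve1 Cd209f cells 22301 counts. The subcluster led by the haemoglobin genes Hbb-bs and Hba-a1, with a median of 26259.5 counts, had 1665 CPM of Trem2 and 2394 CPM of Gpnmb. The part of depth was not tested. A further 68 cells with fibroblast markers and 51 with endothelial markers were kept apart; without them the macrophage-like levels were 1341 CPM for Trem2 and 2868 CPM for Gpnmb.

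**Figure D2:**
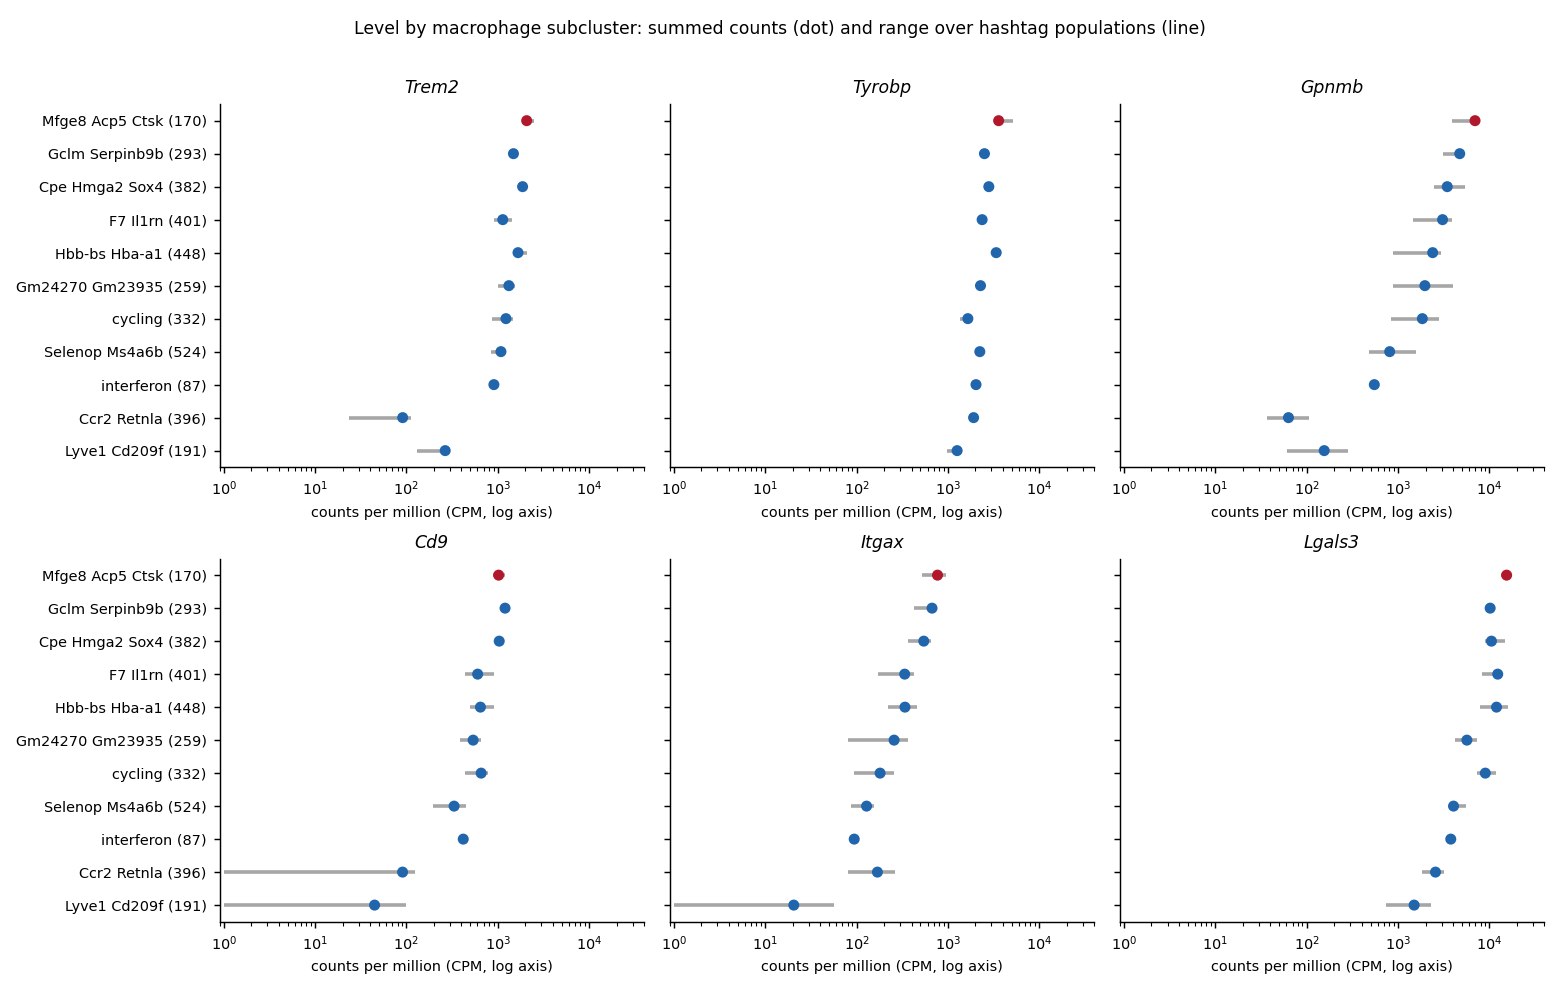
CPM (log axis) of each gene in the 11 macrophage-like subclusters (rows, with cell numbers), with lines for the range over hashtag populations of at least 10 cells. The Mfge8 Acp5 Ctsk subcluster (red) is highest for every gene but Cd9, and Tyrobp varies least, from 1262 to 3592 CPM.

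In the same cell, all 6 genes reached 22 counts in 816 of 3602 macrophage-like cells, or 22.7% (21.3 to 24.1). This share was 78.2% in the Mfge8 Acp5 Ctsk, 51.9% in the Gclm Serpinb9b and 49.7% in the Cpe Hmga2 Sox4 subcluster, against 0 of 396 Ccr2 Retnla cells, which allows up to 0.758%, and 0 of 191 Lyve1 Cd209f cells, which allows up to 1.57%. Among 3135 fibroblast-like cells it was 1 cell, and among 95 monocyte-like cells 0, which allows up to 3.16%. A fixed count is easier to reach in a deep cell, so depth enters this order. With cells thinned to 5000 counts, Cd9 was seen in 71.2% of the macrophage-like cells with a Trem2 count, against 18.7% of those without one. The same shares were 73.4% against 34.0% for Gpnmb and 42.1% against 14.7% for Itgax. Thinning cannot restore counts under 8 for Cd9 and under 7 for Itgax that are listed as 0, so depth can still enter these shares. Within subclusters the pairs were looser, with median rank correlations of 0.12 (Tyrobp and Gpnmb) to 0.35 (Gpnmb and Lgals3) over cells that share 1 library.

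**Figure D3:**
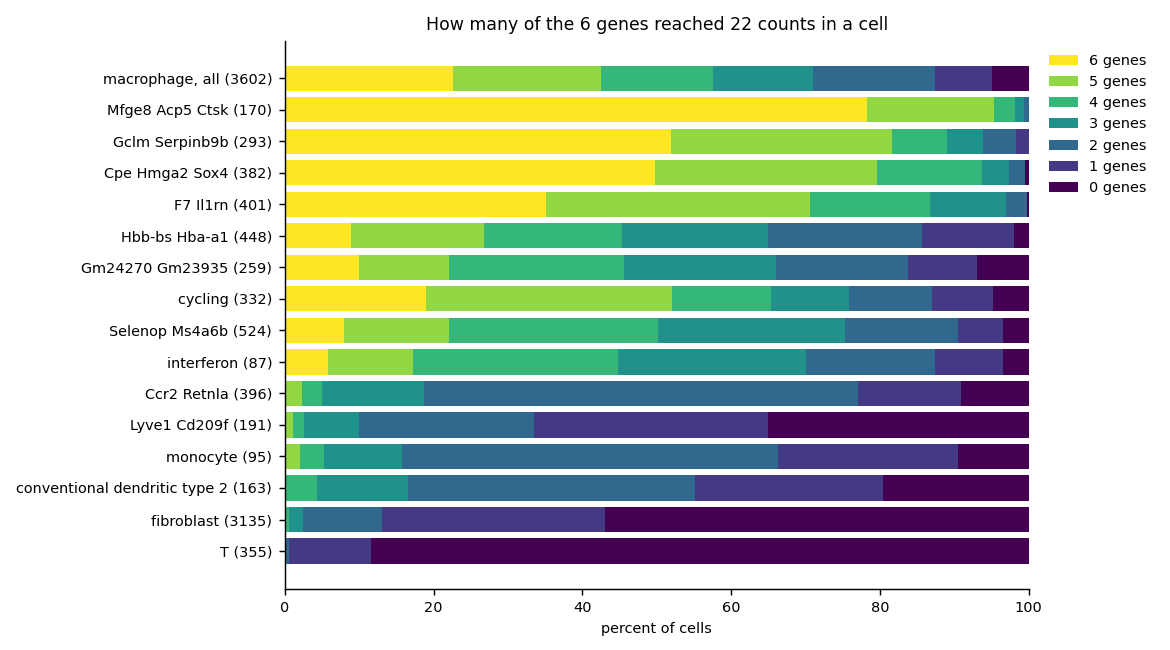
Percent of cells (x axis) of each macrophage-like subcluster and of other classes (rows) by how many of the 6 genes reached 22 counts in the cell. The share with all 6 was 78.2% in the Mfge8 Acp5 Ctsk subcluster and 22.7% over all macrophage-like cells.

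The hashtag populations differed in the levels of the macrophage-like cells, each given here in the order A0301, A0302, A0303, A0304, A0305, A0307, A0308, A0309 and A0310. They held 75, 72, 100, 409, 484, 539, 559, 714 and 650 such cells, or 9.26%, 7.53%, 9.59%, 38.0%, 40.5%, 45.1%, 40.1%, 50.0% and 54.6% of their cells. Trem2 was 738, 499.8, 613, 1131, 1099, 1233, 1399, 1678 and 1385 CPM. Gpnmb was 1255, 539, 749, 3452, 2779, 3584, 1417, 2318 and 4012 CPM. A0301, A0302 and A0303 held few macrophage-like cells and had the 3 lowest levels of both genes, A0308 standing just above them for Gpnmb but not for Trem2. Cd9 was 408, 289, 360, 559, 471, 619, 684, 863 and 938 CPM. Itgax was 214, 148, 218, 392, 275, 413, 284, 436 and 449 CPM. Both had their lowest levels in A0302 and their highest in A0310. Lgals3 was 4786, 2914, 3950.1, 10746, 10792, 11041, 7034, 8271 and 9867 CPM. Tyrobp was 1709.7, 1643, 1900.3, 2446, 2403, 2439.5, 2326, 2541 and 2538 CPM. For these 2 genes too, A0301, A0302 and A0303 had the lowest levels.

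The ratio of the highest to the lowest population was 7.44 for Gpnmb, 3.79 for Lgals3, 3.36 for Trem2, 3.25 for Cd9, 3.05 for Itgax and 1.55 for Tyrobp. At least 2-fold was thus reached by 5 of 6 genes, where 48.2% of the 7840 genes compared reached it, with a median ratio of 1.97. Without A0301, A0302 and A0303, each with at most 100 macrophage-like cells, a choice made after seeing the data, only Gpnmb reached 2-fold, at 2.83-fold. The mix of subclusters also differed between populations. If each subcluster had its overall level in every population, the ratios would be 2.85 for Gpnmb, 2.22 for Trem2 and 1.93 for Lgals3. The measured Gpnmb level was 0.435 to 1.20 times the level so computed, that of Trem2 0.679 to 1.12 times. With the subclusters of at least 5 cells weighted equally in each population, the ratios were instead 21.9 for Gpnmb, 7.41 for Cd9, 5.16 for Lgals3, 4.21 for Trem2, 2.91 for Itgax and 2.04 for Tyrobp. A0301, A0302 and A0303 had 4 to 5 such subclusters and the other populations 10 to 12.

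**Figure D4:**
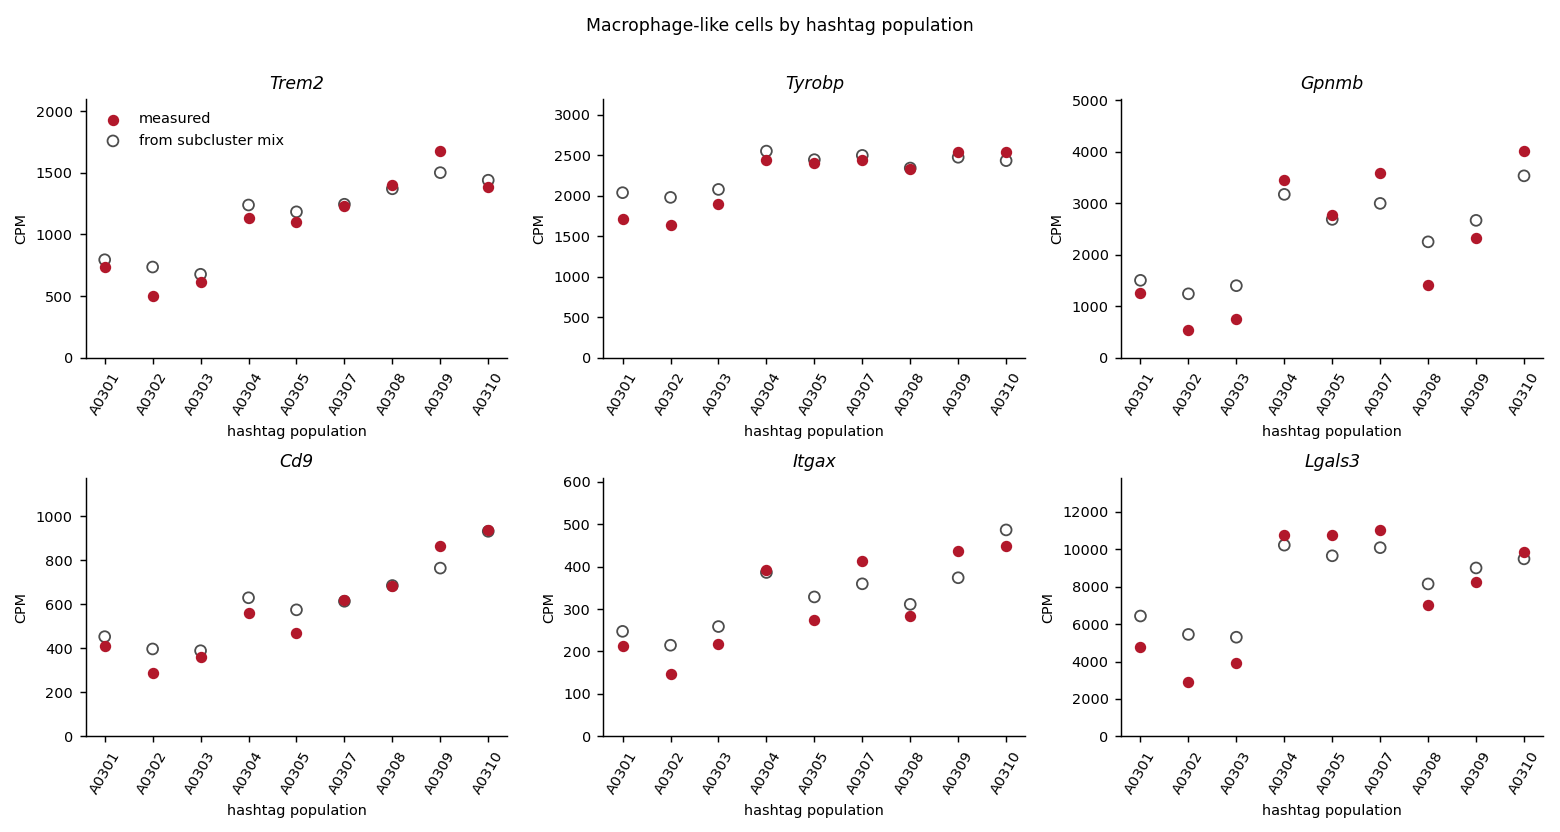
CPM in macrophage-like cells of each hashtag population (x axis), measured (filled) and computed from the population's mix of subclusters (open). The measured Gpnmb level is lowest in A0302 at 539 CPM and highest in A0310 at 4012 CPM. It lies under the computed level in A0301, A0302, A0303, A0308 and A0309.

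A0308 had low Gpnmb, and mostly low Lgals3, also within subclusters without markers of another class. These were compared where A0308 had at least 10 cells and at least 2 other populations did. In all 7 of them its Gpnmb level was the lowest. Its Lgals3 level was the lowest in 6 of the same 7 and its Tyrobp level in 2. Its Cd9 and Itgax levels were the lowest in 1 each and its Trem2 level in 0. The cells kept apart went the other way. In those with fibroblast markers A0308 was highest, with 2225 CPM of Gpnmb against 2074 and 1958 CPM in A0307 and A0309. Its Lgals3 level there was 6439 CPM against 5575 and 4966 CPM. In those with endothelial markers A0308 had 2300 CPM of Gpnmb against 1339 CPM in A0309. In cycling cells Gpnmb was 832 CPM in A0308, against 2041, 2750, 2804, 1422 and 2459 CPM in A0304, A0305, A0307, A0309 and A0310. In the haemoglobin-led cells it was 879 CPM in A0308, against 2810, 2663, 2761, 1589 and 2972 CPM in the same populations, and in Selenop Ms4a6b cells 485 CPM, against 1556, 1283, 827, 661 and 1036 CPM. A0309 was next in each of these 3 subclusters. Trem2 in Selenop Ms4a6b cells was ordered differently, with 1124 CPM in A0308, against 988, 899, 850, 1237 and 1021 CPM.

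Gpnmb in fibroblast-like cells followed another order of the populations. It was 114, 132, 134, 135, 128, 135, 233, 254 and 258 CPM in the order above, so that A0308, A0309 and A0310 lay above the other 6, the nearest values being 233 and 135 CPM. Within fibroblast clusters the populations did not separate in this way. In C4b Serpina3n Mmp3 fibroblasts Gpnmb was 324, 287 and 242 CPM in these 3, against 241 to 323 CPM in the others. In Mfap4 Ccn5 Cilp fibroblasts it was 193, 408 and 336 CPM, against 182 to 318 CPM. In Scg3 fibroblasts it was 218, 253 and 73.2 CPM, against 64.8 to 121 CPM. The highest value, 743 CPM, came from 48 Inmt fibroblasts of A0310, beside 207 and 216 CPM in A0308 and A0309 and 117 to 248 CPM in the others. The share of fibroblast-like cells with at least 22 Gpnmb counts was 16.8%, 19.8% and 16.7% in these 3, against 5.92% to 11.6% in the others. Macrophage markers summed to 182, 273 and 180.3 CPM in the fibroblast-like cells of A0308, A0309 and A0310, and to 96.2, 98.2, 92.0, 144, 299 and 135 CPM in the others, so that A0305 had the highest sum beside the second lowest Gpnmb level. Over all fibroblast-like cells, the 346 with at least 22 Gpnmb counts had 276 CPM of macrophage markers, against 138 CPM in the rest and 8322 CPM in macrophage-like cells. By cluster the level was 288 CPM in C4b Serpina3n Mmp3 fibroblasts and 245 CPM in Mfap4 Ccn5 Cilp fibroblasts, against 61.1 CPM in Mrgprg fibroblasts. The mix of fibroblast clusters alone would give 206 to 209.9 CPM in A0308, A0309 and A0310 and 139.6 to 151 CPM in the others.

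**Figure D5:**
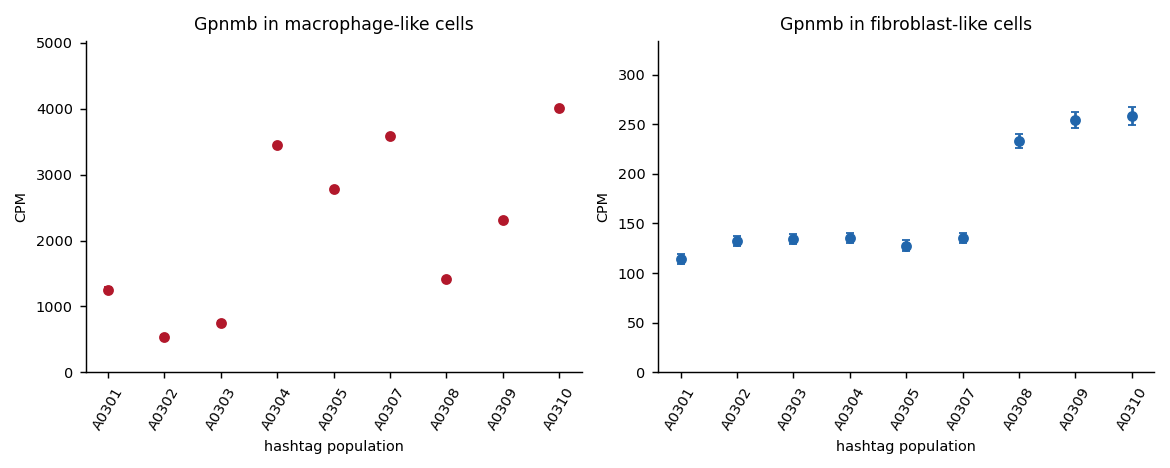
Gpnmb CPM in macrophage-like and fibroblast-like cells of each hashtag population (x axis), with 95% exact Poisson intervals. Fibroblast-like levels are 233 to 258 CPM in A0308, A0309 and A0310 and 114 to 135 CPM in the others, while macrophage-like A0308 stands at 1417 CPM.

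The genes most like each member over the 26 units, 11 subclusters and other classes of at least 50 cells, were sought among 11942 genes by Pearson correlation of log2(CPM + 1), as a description of units that share 1 library. For Trem2 they were Ctsb (0.95), Atp6v1a (0.95) and Nceh1 (0.94), a lysosomal protease, a subunit of the vacuolar proton pump and a cholesteryl ester hydrolase. Gpnmb had the proton pump subunits Atp6v1a (0.94) and Atp6v1c1 (0.92) and Vsig8 (0.93). Tyrobp was closest to Fcer1g (0.97), the other myeloid adaptor with such a motif, then to Itgam (0.94) and Efhd2 (0.93). Lgals3 was closest to Ndufb8 (0.94), Atp6v0c (0.93) and the lipid droplet protein Plin2 (0.93). Itgax had Lat2 (0.90), Efhd2 (0.89) and Wdr1 (0.88). Cd9 had no close partner, with Prdx2 at 0.84, Gng12 at 0.82 and Lipt2 at 0.82. Within the set, Trem2 and Gpnmb had 0.94, Tyrobp and Itgax 0.92 and Tyrobp and Cd9 0.36.

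Around the receptor, the other TREM genes were scarce. None of the 5 in the table reached 20 CPM in macrophage-like cells or in the other named cells together, the highest in macrophages being Trem1 with 1.70 CPM in macrophage-like and 2.56 CPM in other named cells. A list of 10 other receptors was drawn up as possible partners of Tyrobp, and their pairing was not tested. Of these, 3 reached 20 CPM, and all 3 were at least 2-fold higher in macrophage-like cells. They were Cd300ld (425 against 9.11 CPM), Cd300c2 (372 against 12.3 CPM) and Cd300lb (94.6 against 3.20 CPM), lipid-binding or activating receptors of the CD300 family. In the signalling list, 13 of 14 measured genes were at least 2-fold higher in macrophage-like cells and none lower, where 13.1% of all genes were higher and 22.7% lower, with a median log2 ratio of 1.94, against -0.13 over all genes. Syk was 212 against 32.9 CPM and its adaptor Blnk 201 against 12.8 CPM. Between the Mfge8 Acp5 Ctsk and the Ccr2 Retnla subcluster, in contrast, 1 of 13 signalling genes was at least 2-fold higher and 4 lower, where 11.3% of all genes were higher and 11.9% lower. Blnk was the higher one, with 265 and 116 CPM, and Syk had 253 and 247 CPM. The 4 lower were Fgr (4.90 and 78.7 CPM), Lcp2 (27.9 and 136 CPM), Plcg2 (22.6 and 101 CPM) and Pik3cd (26.7 and 69.2 CPM), named after their values were seen.

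The sheddases Adam10 and Adam17, which cut Trem2 from the surface, and the gamma-secretase subunits that cut its stub were at similar levels in and outside macrophage-like cells. None of 7 differed 2-fold, with Adam10 at 129 CPM in macrophage-like against 109.9 CPM in other cells and Adam17 at 113 against 73.7 CPM. Most listed genes of lipid uptake and storage were high in macrophage-like cells. At least 2-fold higher levels in macrophage-like cells were found for 9 of 11 genes, and lower levels for 2, with a median log2 ratio of 2.78. Of all genes 13.1% were higher and 22.7% lower. The 2 lower were Fabp4 (435 against 2158 CPM) and Clu (1.19 against 171 CPM), named after their values were seen. Apoe, a Trem2 ligand, had 4975 against 719 CPM, the lipase Lpl 6709 against 978 CPM and the fatty acid receptor Cd36 5803 against 918 CPM. Between the Mfge8 Acp5 Ctsk and Ccr2 Retnla subclusters 9 of 10 were higher and none lower, beside 11.3% and 11.9% of all genes. Cd36 had 7906 and 1149.6 CPM and Apoe 7394 and 632 CPM. Apoe was also high where Trem2 was low, with 9855 CPM in the Lyve1 Cd209f subcluster.

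For Gpnmb, 3 of 5 measured relatives, partners and MiT factors were at least 2-fold higher in macrophage-like cells and none lower. Of all genes 13.1% were higher and 22.7% lower. Its binding partner Cd44 had 567 against 127 CPM and the transcription factor Mitf 88.3 against 25.1 CPM, while Sdc4 had 217 against 221 CPM. None of 5 reached 2-fold on CPM plus 1 between the Mfge8 Acp5 Ctsk and Ccr2 Retnla subclusters, but 2 MiT factors lay at the edge. Mitf had 113 and 56.3 CPM, a plain ratio of 2.02. Tfeb, named after its values were seen, had 52.4 and 25.8 CPM, a plain ratio of 2.03. Of 9 tetraspanins and partners, 3 were higher and 3 lower in macrophage-like cells, beside 13.1% and 22.7% of all genes. The lysosomal tetraspanin Cd63 had 1708 against 662 CPM and Cd151 111 against 229 CPM. In the Mfge8 Acp5 Ctsk over the Ccr2 Retnla subcluster, 6 of 9 were higher and 1 lower, beside 11.3% and 11.9% of all genes, Cd63 with 2595 and 182 CPM. The shared chain of the CD11 integrins, Itgb2, had 799.9 against 45.3 CPM and Itgam 483 against 27.4 CPM, and neither differed 2-fold between these subclusters. Of the 4 galectin list genes, none was higher in macrophage-like cells and Lgals9 was lower, with 57.3 against 119.9 CPM. Lgals1, the highest of these 4 in macrophage-like cells, had 2221 against 1403 CPM. In the Mfge8 Acp5 Ctsk over the Ccr2 Retnla subcluster, 3 of 4 were higher and none lower, beside 11.3% and 11.9% of all genes. They were Lgals1 with 2000.2 and 492 CPM, Lgals3bp with 136 and 37.5 CPM and Lgals8 with 77.2 and 32.5 CPM.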

How the data were processed

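The authors deposited 1 table of counts per gene and cell, unnormalised, and 1 table of hashtag counts, both from the same pool. Per the submitters' processing notes, cutadapt 2.10, Bowtie2 2.4.2, R 3.6.3 and the GRCm38 build were used; the rules for calling cells, doublets and hashtags are not stated in the sources at hand, nor is whether the counts were collapsed to molecules. Hashtag calls were taken from the deposited cell names, and 12 cell columns without a call were not used. Cells needed at least 200 genes and at most 25% mitochondrial counts; 1253 failed, 254 named as hashtag doublets and 236 marked by Scrublet (2.23% of the cells left) were removed, and 1 cell was both. Clustering used scanpy 1.11.5 (2000 variable genes, 30 components, 15 neighbours, Leiden resolution 1) without the 6 genes and the pathway lists. Members, markers and lists were chosen with earlier results of these data known. Symbols were matched to GENCODE M21 for 28384 of 29417 genes (96.5%).

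Levels are CPM of summed counts. A gene entered a comparison at 20 CPM or more in either group, and 2-fold ratios were counted on CPM plus 1. At most 4 genes a list are named, those highest in macrophage-like cells, and for each member the 3 most alike genes. With 1 pooled library there are no replicates, so no test was run. The counting steps were tested on simulated data with known changes. Alternatives were other clusterings, cell filters, depths, weights, hashtag calls and treatments of low counts.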

Additional observations from a re-analysis of the deposited data

Results flagged for a closer look

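Over 30 sets of hashtag populations (each gene in 5 classes), 3 had a highest value far from the other populations, and chance flags about 1 in 20. Tyrobp in mesothelial-like cells was 100.35 CPM in A0301, and Itgax in mesothelial-like cells was 53.991 CPM in A0309. Itgax in T-like cells was 289.84 CPM in A0307, from 55 counts in 10 cells.

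Signal was also present in cells left out of the comparisons. The 254 cells named as hashtag doublets had 138 CPM of Trem2, 224 CPM of Tyrobp, 382 CPM of Gpnmb, 438 CPM of Cd9, 31.9 CPM of Itgax and 807 CPM of Lgals3. The 377 cells left without a class name had 632 CPM of Trem2, 1683 CPM of Tyrobp, 370.0 CPM of Gpnmb, 294 CPM of Cd9, 124 CPM of Itgax and 3111 CPM of Lgals3.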

How the results depend on the processing

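Of the 3 counts over the set, 2 stayed within 1.5 times under all alternatives run. Leaving out each hashtag population in turn gave 4 to 5 genes highest in macrophage-like cells and 6 to 6 genes with 2-fold between subclusters. The count of genes with 2-fold between hashtag populations was 1 (Gpnmb) without the 3 populations of under 150 macrophage-like cells, an alternative chosen after seeing the data, and 6 with equal weights for subclusters. Trem2, Tyrobp, Gpnmb and Lgals3 were highest in macrophage-like cells in 23 of 23 alternatives, Itgax in 14 of 23 and Cd9 in 0 of 23. Some of the 23 could not change the class levels, so they add nothing to these counts. Those changed only the weights of subclusters, the hashtag calls, or which subclusters or populations were compared. Macrophage-like levels moved by 0.645 to 1.10 times. Of all class levels, 201 of 1878 moved over 1.5 times, 47 of them when each 0 was replaced by the value just under the lowest listed count. The 1878 include 96 levels under equal weights of subclusters and 96 under the other hashtag calls, which could not move. No paired analysis was possible because the hashtags carry no replicate numbers or groups. Classes of few cells, such as the 60 lymphatic endothelial-like cells, are limited by depth, and a listed 0 hides low counts.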

Other observations

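Within the 95 monocyte-like cells the genes differed between the clusters that made up the class. The 73 cells led by Chil3 and Gm9733 had 275 CPM of Trem2, 2992 CPM of Lgals3 and 259 CPM of Gpnmb. The 22 cells led by Treml4, a gene of patrolling monocytes in mice, had 65.2 CPM of Trem2, 829 CPM of Lgals3 and 63.4 CPM of Gpnmb. Tyrobp ran the other way, with 2031 CPM in the Chil3-led and 2767 CPM in the Treml4-led cells. The 10 monocyte-like cells with at least 22 Trem2 counts had a macrophage marker sum of 5709 CPM, against 2763 CPM in the other 85, and the part of macrophage RNA in their Trem2 was not tested.

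Among fibroblast-like clusters Cd9 was ordered differently from Gpnmb, with 599 CPM in Mfap4 Ccn5 Cilp, 528 CPM in Scg3, 347 CPM in C4b Serpina3n Mmp3, 329.8 CPM in Mrgprg and 264 CPM in Inmt fibroblasts. Gpnmb in the Scg3 and Inmt fibroblasts was 105 and 183 CPM.

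Some subclusters came mostly from 1 hashtag population. Of the 293 Gclm Serpinb9b cells, in which Cd9 was highest, 252 came from A0310, and of the 87 interferon cells 69 came from A0308. Cd9 was high in the Gclm Serpinb9b cells of the other populations too, with 1107 CPM in 13 cells of A0304 and 1375 CPM in 12 cells of A0309, against 1188 CPM in A0310. Within A0310 it was 1215 CPM in Mfge8 Acp5 Ctsk and 442 CPM in F7 Il1rn cells. Of the interferon cells, no other population had 10, so its levels were not compared between populations. By share of macrophage-like cells the 9 populations fell into values of 7.53%, 9.26% and 9.59% in A0302, A0301 and A0303 and of 38.0% to 54.6% in the other 6, with none between.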
